A study of Mus musculus with 9 samples.

Results

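TGF-beta signaling was followed through 10 genes in CD11b+ cells sorted from mouse gliomas: the ligand Tgfb1, the receptors Tgfbr1 and Tgfbr2, the signal carriers Smad2, Smad3 and Smad4, the inhibitory Smad7, and the nuclear repressors Ski, Skil and Tgif2. They were chosen by their place in the pathway with earlier results of these data known, and in part by the high Tgif2 level under OAT-1746 alone, so their values in OAT-1746 against control (CTR) are a description and carry no test. All 10 were among the 12538 protein-coding genes tested. Male C57BL/6J mice, 10 to 12 weeks old, received GL261 glioma cells carrying tdTomato and luciferase in the striatum. CTR mice were given saline by gavage (2 libraries). OAT-1746, an oral inhibitor of arginase 1 and 2, was given at 50 mg/kg by gavage from day 1 (2 libraries). The anti-PD-1 antibody was injected 4 times between days 8 and 14 at 2.5 mg/kg (2 libraries), and COMB mice had both agents (3 libraries). The methods place the sorting at day 28 after implantation and a figure legend at day 21. One of the 2 antibody libraries, replicate 2, carries a different target than PD-1 in its treatment field, and it was grouped by title.

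In this pathway a secreted, latent TGF-beta dimer is activated outside the cell and binds TGFBR2, which phosphorylates TGFBR1, which in turn phosphorylates SMAD2 and SMAD3. These pair with SMAD4 and act on genes in the nucleus, where SKI, SKIL (SnoN) and the homeodomain proteins TGIF1 and TGIF2 recruit histone deacetylases and hold SMAD targets down, while SMAD7, itself a target, blocks and removes the receptors. Microglia need TGF-beta to keep their identity, and gliomas are rich in the ligand.

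The libraries held 17490386 and 17729568 counted read pairs in CTR, 17380045 and 16784406 in OAT-1746, 14356928 and 18796479 in anti-PD-1, and 13048075, 16144518 and 14806017 in COMB. The methods speak of 2 to 3 biological replicates and do not say how many mice each sample holds, so the p-values measure the spread between these samples. OAT-1746 replicate 2 stood apart from the rest. Its correlation with the other libraries was 0.911 to 0.956, and its median distance from the CTR mean was 0.586 on the log2 scale, against 0.316 for OAT-1746 replicate 1. The log2 fold changes of the 10 genes and the list medians in OAT-1746 against CTR are therefore also given without it, and the counts of list genes include both libraries. Levels below are CPM, counts scaled by TMM to a common library size, and levels of different genes are compared per kilobase of exon.

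Per kilobase of exon, the mean levels over the 9 libraries ran from 225 for Tgfbr1, 131 for Tgfb1 and 92.0 for Tgfbr2 through 76.6 for Ski, 23.1 for Smad3, 19.3 for Skil, 16.2 for Smad4 and 11.4 for Smad7 to 6.13 for Tgif2 and 5.97 for Smad2. The ligand and its receptors were thus the most abundant of the 10 transcripts on this scale, and Tgif2 and Smad2 the least.

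The ligand, first in the pathway, did not share the higher level of the other 9 genes in OAT-1746. Tgfb1 (ENSMUSG00000002603, chr7:25687002-25705077 on the plus strand of GRCm38) stood at 754 and 699 CPM in CTR, 684 and 572 in OAT-1746, 682 and 734 in anti-PD-1, and 613, 599 and 595 in COMB. It was the only 1 of the 10 genes with both OAT-1746 libraries below both CTR libraries, and the 3 COMB libraries lay below every CTR and every anti-PD-1 library. The other 2 ligand genes were scarce, at a mean of 1.32 CPM for Tgfb2 and 1.05 CPM for Tgfb3, and both lay above CTR in both OAT-1746 libraries, Tgfb2 by 1.14 on the log2 scale (standard error 0.606) and Tgfb3 by 1.17 (0.646).

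Both receptors were higher in the OAT-1746 libraries. Tgfbr1 (ENSMUSG00000007613, chr4:47353222-47414931, plus strand), the type I receptor kinase, had 1147 and 1518 CPM in CTR, 1760 and 2258 in OAT-1746, 1162 and 1130 in anti-PD-1, and 1616, 1371 and 1249 in COMB. Tgfbr2 (ENSMUSG00000032440, chr9:116084293-116175360, minus strand), the type II receptor that binds the ligand, had 638 and 782 CPM in CTR, 903 and 1165 in OAT-1746, 672 and 656 in anti-PD-1, and 794, 581 and 590 in COMB. For both genes the OAT-1746 libraries lay above all 7 others, while CTR and COMB libraries overlapped. In sorted bulk cells, here as for every gene below, fewer cells of a type and less RNA per cell cannot be told apart.

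Of the 3 signal carriers Smad3 differed most between groups. Smad3 (ENSMUSG00000032402, chr9:63646767-63757994, minus strand), which binds DNA directly, had 77.4 and 123 CPM in CTR, 173 and 238 in OAT-1746, 127 and 105 in anti-PD-1, and 131, 87.7 and 91.5 in COMB. Smad2 (ENSMUSG00000024563, chr18:76241580-76310963, plus strand), its partner receptor substrate, had 50.5 and 48.8 CPM in CTR, 54.9 and 57.2 in OAT-1746, 57.0 and 55.6 in anti-PD-1, and 50.3, 49.8 and 47.6 in COMB. Smad4 (ENSMUSG00000024515, chr18:73639009-73703780, minus strand), the shared partner of TGF-beta and BMP SMADs, had 53.3 and 52.6 CPM in CTR, 73.5 and 70.5 in OAT-1746, 55.4 and 56.1 in anti-PD-1, and 61.6, 58.8 and 58.3 in COMB. Smad3 spread widely within CTR, OAT-1746 and COMB, whereas the Smad2 and Smad4 replicates lay close together. For Smad3 and Smad4 both OAT-1746 libraries lay above all 7 others.

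Smad7 (ENSMUSG00000025880, chr18:75367529-75395935, plus strand), the inhibitory SMAD, had 31.8 and 35.8 CPM in CTR, 55.6 and 116 in OAT-1746, 57.0 and 59.6 in anti-PD-1, and 43.2, 31.6 and 31.3 in COMB. It was high with either agent alone, and the COMB libraries lay on both sides of the CTR libraries. Only OAT-1746 replicate 2 exceeded the anti-PD-1 libraries.

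The repressors Ski and Skil, which bind SMADs and block activation, were also higher in OAT-1746. Ski (ENSMUSG00000029050, chr4:155154075-155222592, minus strand) had 374 and 423 CPM in CTR, 570 and 658 in OAT-1746, 309 and 438 in anti-PD-1, and 396, 313 and 354 in COMB. Skil (ENSMUSG00000027660, chr3:31095058-31122577, plus strand), whose gene is itself a TGF-beta target, had 178 and 186 CPM in CTR, 259 and 284 in OAT-1746, 135 and 221 in anti-PD-1, and 154, 133 and 138 in COMB. The anti-PD-1 replicates of both genes lay on either side of CTR, and all 3 COMB libraries of Skil lay below CTR.

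Tgif2 (ENSMUSG00000062175, chr2:156840007-156855570, plus strand), the homeodomain repressor that binds SMADs and recruits histone deacetylases, had 11.0 and 13.7 CPM in CTR, 36.4 and 69.5 in OAT-1746, 20.6 and 23.5 in anti-PD-1, and 13.7, 11.9 and 11.2 in COMB. The order of the groups was OAT-1746 over anti-PD-1 over CTR and COMB, with a gap between each of the first 2 and the next, while the CTR and COMB libraries overlapped. With both agents given, Tgif2 thus stood at the level of the CTR libraries.

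**Figure D1:**
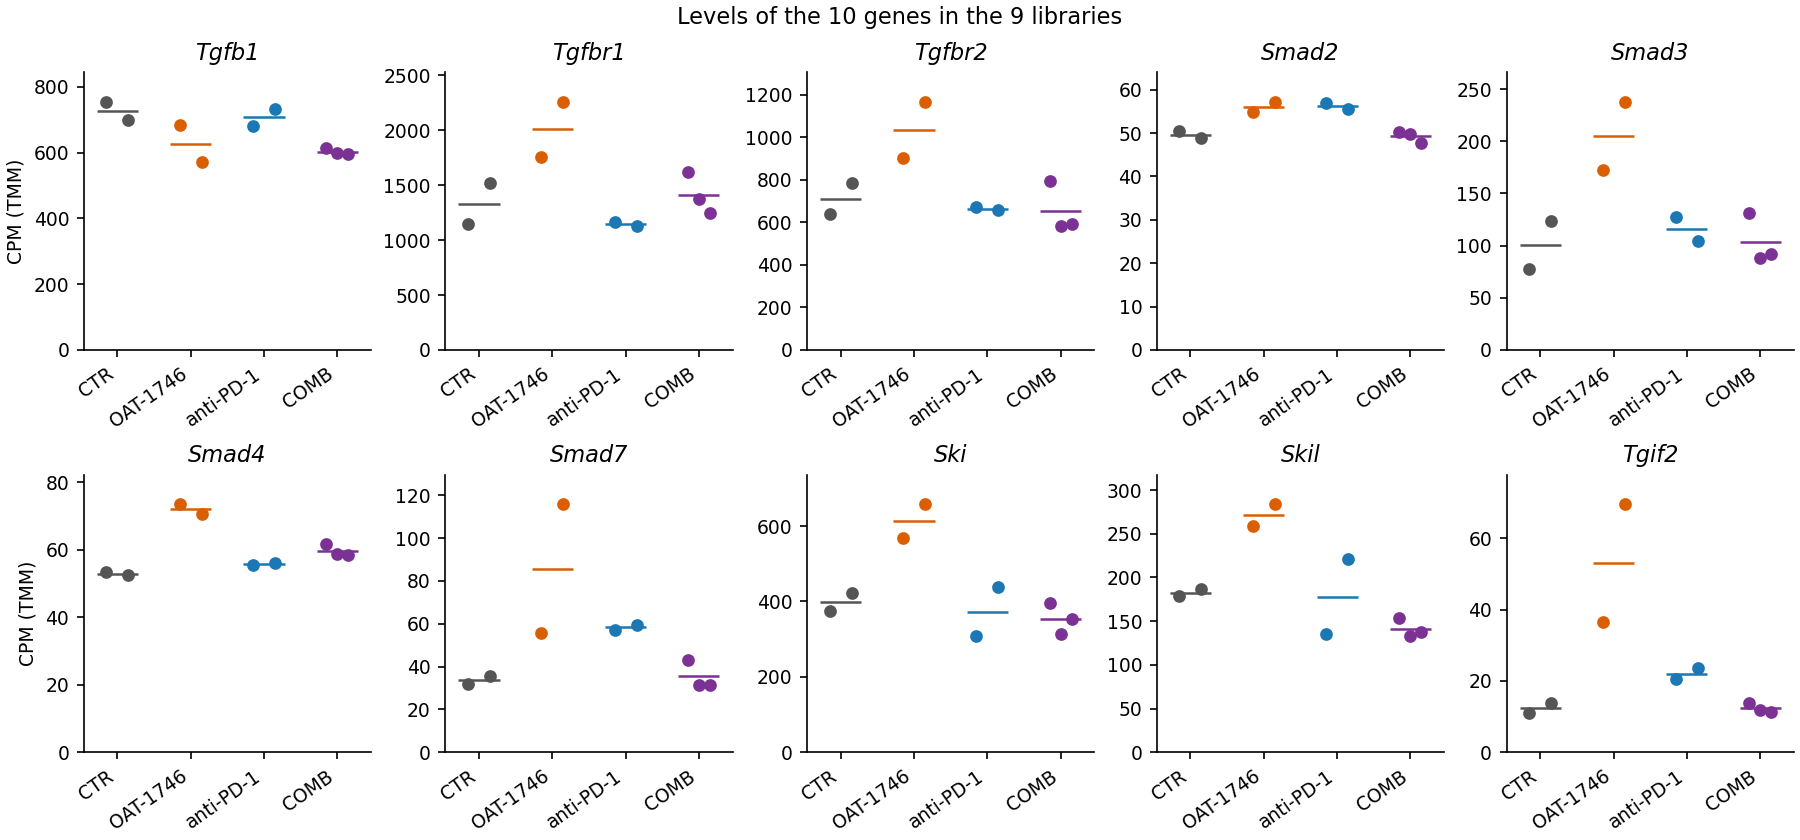
TMM-scaled CPM of the 10 genes in each library (points) with the group mean (line), in 4 treatment groups. The 2 OAT-1746 libraries lie above both CTR libraries for 9 of the 10 genes, and Tgif2 reaches 36.4 and 69.5 there against 11.0 and 13.7 in CTR.

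The promoters of Tgfb1, Smad3 and Tgif2 are shown because these 3 genes span the pathway and include the 1 gene that was below CTR under OAT-1746 (Tgfb1) and the most different (Tgif2). RefSeq promoters of GRCm38.p6 were matched for 6 of the 10 genes, and the 250 bases before the start are printed 5′ to 3′ on the gene's strand, for Tgfb1 at chr7:25686752-25687001 (plus), Smad3 at chr9:63757995-63758244 (minus) and Tgif2 at chr2:156839757-156840006 (plus). Capitals mark GC boxes, the core GGGCGG bound by SP1 and related factors, on either strand.
Tgfb1: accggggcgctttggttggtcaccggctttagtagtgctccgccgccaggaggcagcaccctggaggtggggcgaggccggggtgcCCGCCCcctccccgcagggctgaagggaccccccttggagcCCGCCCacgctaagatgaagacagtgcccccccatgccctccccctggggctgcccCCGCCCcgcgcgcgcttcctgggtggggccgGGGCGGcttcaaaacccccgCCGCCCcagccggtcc
Smad3: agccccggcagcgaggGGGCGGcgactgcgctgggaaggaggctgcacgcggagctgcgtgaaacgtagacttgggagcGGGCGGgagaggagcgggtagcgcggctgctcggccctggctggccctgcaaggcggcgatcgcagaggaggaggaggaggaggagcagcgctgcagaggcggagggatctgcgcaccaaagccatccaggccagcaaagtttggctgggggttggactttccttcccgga
Tgif2: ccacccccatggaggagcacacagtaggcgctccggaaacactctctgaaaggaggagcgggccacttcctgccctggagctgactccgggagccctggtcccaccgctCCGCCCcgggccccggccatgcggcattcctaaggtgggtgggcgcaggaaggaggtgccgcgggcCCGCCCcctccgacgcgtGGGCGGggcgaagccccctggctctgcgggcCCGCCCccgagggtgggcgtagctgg
Tgfb1 held 5 GC boxes, Tgif2 held 4 and Smad3 held 2, and of all 32851 promoters of the same length 32.7% held at least 1 and 4.09% held 4 or more. The SMAD core CAGAC was found in none of the 3 windows on either strand and in 42.2% of all promoters. The TGIF core TGTCA was likewise in none of the 3 and in 40.0% of all. Neither the palindrome GTCTAGAC, in 0.167% of all promoters, nor the AP-1 core TGANTCA, in 6.75%, was present. A match is a description and no sign of binding, and the absence of letters in this window says nothing about the factor.

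How the 10 genes differed between OAT-1746 and CTR is given first, as the description on which they were in part selected. On the log2 scale Tgif2 was higher by 2.10 (standard error 0.291), Smad7 by 1.34 (0.310) and Smad3 by 1.03 (0.285). Ski was higher by 0.62 (0.211), Tgfbr1 by 0.59 (0.216), Skil by 0.57 (0.222), Tgfbr2 by 0.54 (0.219), Smad4 by 0.44 (0.124) and Smad2 by 0.18 (0.126), and Tgfb1 stood at -0.21 (0.161). Both OAT-1746 libraries were above both CTR libraries for 9 of the 10, where 30.8% of all tested genes were, and below for 1, where 32.1% were. The median over the 10 was 0.58 against 0.008 over all tested genes, and 0.51 against -0.0043 without OAT-1746 replicate 2. Across the whole table the comparison gave 0 genes by edgeR's quasi-likelihood test with Benjamini-Hochberg adjustment at 0.05 (0%), 2013 higher (16.1%) and 2036 lower (16.2%) at an unadjusted p under 0.05, and 1972 by DESeq2.

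The size of these differences rested in part on OAT-1746 replicate 2. Without it Tgif2 was higher by 1.58, Smad3 by 0.80 and Smad7 by 0.74. Ski then stood at 0.53, Skil at 0.52, Smad4 at 0.49, Tgfbr1 at 0.42, Tgfbr2 at 0.36, Smad2 at 0.16 and Tgfb1 at -0.07. Tgif2 was the gene with the greatest difference among the 10 with and without that library, and all 10 kept their sign. Smad2 also moved with the processing, to 0.08 with the length and GC correction and to 0.26 with scaling by library size.

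Anti-PD-1 alone was set against CTR to ask whether the antibody touched the same genes. This comparison shares the CTR libraries with the one used in the choice. Tgif2 and Smad7 stood out. Tgif2 was higher by 0.84 on the log2 scale in anti-PD-1 (standard error 0.286, unadjusted p = 0.0167, adjusted p = 0.951 by edgeR's quasi-likelihood test with Benjamini-Hochberg adjustment), with both anti-PD-1 libraries above both CTR libraries. Smad7 was higher by 0.79 (standard error 0.308, unadjusted p = 0.0308, adjusted p = 0.951 by the same edgeR quasi-likelihood test with Benjamini-Hochberg adjustment), again with no overlap. Neither passed the adjusted threshold.

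The other 8 genes lay between -0.22 for Tgfbr1 and 0.21 for Smad3 in anti-PD-1 against CTR. On leaving out 1 library Tgfbr1 ran from -0.41 to -0.0016 and Smad3 from -0.087 to 0.58. Smad2 at 0.18 and Smad4 at 0.08 also had both anti-PD-1 libraries above CTR, which made 4 of 10 above, a larger share than the 20.6% of all tested genes, and 0 of 10 below, against 16.9%. At an unadjusted p under 0.05, 2 of the 10 were higher, beside 3.18% of all genes, and 0 were lower, beside 1.94%. That count was 0 without CTR replicate 1 or anti-PD-1 replicate 2 and 1 without CTR replicate 2 or anti-PD-1 replicate 1, fits in which the lone library left is assumed to vary like the other groups. No gene of the whole table passed the adjusted threshold by edgeR's quasi-likelihood test with Benjamini-Hochberg adjustment (0%), 399 were higher and 243 lower at an unadjusted p under 0.05, and DESeq2 called 14.

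Given both agents, the pathway genes stood near CTR. In COMB against CTR, which also shares the CTR libraries, Tgif2 was at -0.01 on the log2 scale (standard error 0.264), a sign that turned with the scaling (0.01 with DESeq2's size factors). Smad7 was at 0.06 (0.282), Smad3 at 0.05 (0.258), Tgfbr1 at 0.08 (0.197), Smad2 at -0.01 (0.116), Tgfbr2 at -0.12 (0.199) and Ski at -0.17 (0.192). These 7 differences were all within 1 standard error of 0.

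Skil at -0.37 and Tgfb1 at -0.27 had all 3 COMB libraries below CTR and Smad4 at 0.17 had them above. That made 2 of 10 below and 1 of 10 above, shares near the 15.8% and 12.1% of all tested genes, and the median over the 10 was -0.01 against -0.0048 over all. None of the 10 had an unadjusted p under 0.05, beside 3.21% of all genes higher and 3.37% lower, and a fit of the 2 groups alone gave 1. Over the whole table edgeR's quasi-likelihood test with Benjamini-Hochberg adjustment called 0 (0%), 403 genes were higher and 422 lower at an unadjusted p under 0.05, and DESeq2 called 35.

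COMB against anti-PD-1 asks what the arginase inhibitor added to the antibody. Its fold changes use no library of OAT-1746 against CTR, the comparison that entered the choice of genes. Earlier results of these data were known at that choice, however, so this comparison is not a blind one. Its p-values rest on a spread estimated from all 9 libraries. Here Tgif2 and Smad7 pointed the other way from OAT-1746 alone. Tgif2 was lower in COMB, at -0.85 on the log2 scale (standard error 0.258, unadjusted p = 0.00929, adjusted p = 0.574 by edgeR's quasi-likelihood test with Benjamini-Hochberg adjustment), and all 3 COMB libraries lay below both anti-PD-1 libraries. Smad7 was at -0.72 (standard error 0.277, unadjusted p = 0.0280, adjusted p = 0.649 by the edgeR quasi-likelihood test with Benjamini-Hochberg adjustment), with the same separation. Neither passed the adjusted threshold, and over the alternatives the adjusted p of Tgif2 ran from 0.0772 to 1.

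Among the other 8 genes Tgfbr1 at 0.30 and Smad4 at 0.10 had all COMB libraries above anti-PD-1. Tgfb1 at -0.23 and Smad2 at -0.19 had all below. Apart from leaving out 1 library, the alternatives put Smad2 between -0.19 and -0.099. Skil was at -0.33, Smad3 at -0.16, Ski at -0.07 and Tgfbr2 at -0.02, with overlapping libraries. In all 4 of 10 genes lay below, a larger share than the 16.4% of all tested genes, and 2 of 10 above, against 10%. At an unadjusted p under 0.05, 2 of 10 were lower, a larger share than the 5.26% of all genes, and 0 were higher, beside 1.98%. The count of 2 became 0 without anti-PD-1 replicate 2, 1 without COMB replicate 2 or COMB replicate 3, and 1 with the replicate number as a block, a fit that in effect drops COMB replicate 3. The whole table gave 0 calls by edgeR's quasi-likelihood test with Benjamini-Hochberg adjustment (0%), 248 genes higher and 659 lower at an unadjusted p under 0.05, and 47 by DESeq2.

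**Figure D2:**
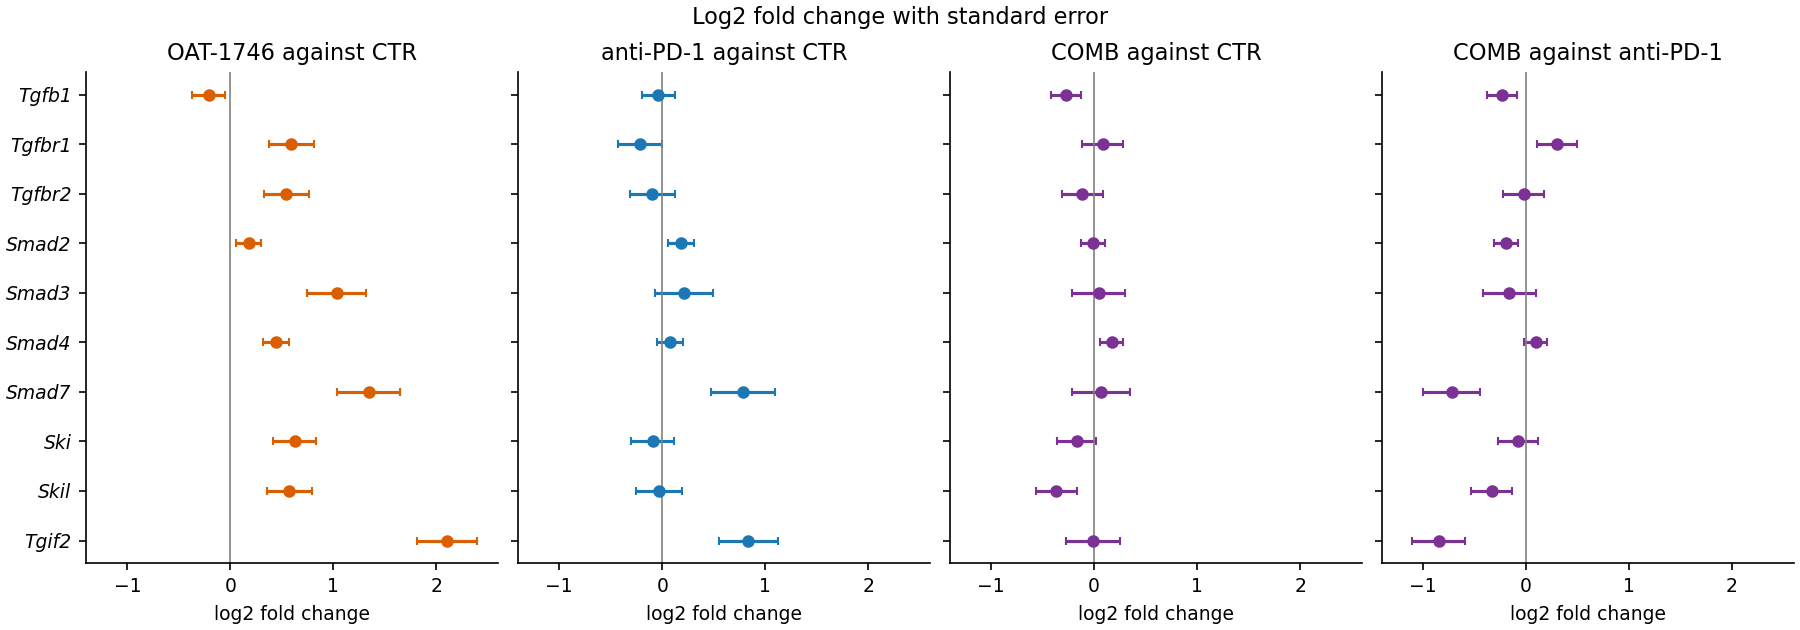
Log2 fold change (point) with its standard error (bar) of each of the 10 genes in 4 comparisons, from the edgeR fit of all 9 libraries. Tgif2 lies at 2.10 in OAT-1746 and 0.84 in anti-PD-1 against CTR, at -0.01 in COMB against CTR and at -0.85 in COMB against anti-PD-1; the OAT-1746 panel is a description, as it entered the choice of genes.

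Put side by side, the OAT-1746 difference under the antibody minus that without it was negative for all 10 genes, again as a description. It was negative for 51.3% of all tested genes, but for 96.2% of those above CTR in OAT-1746, so the sign was shared by nearly all genes that were high in OAT-1746. The median was -0.63 over the 10 genes, -0.02 over all tested genes and -0.73 over those above CTR in OAT-1746. The difference was -2.95 for Tgif2, -2.06 for Smad7, -1.20 for Smad3, -0.91 for Skil and -0.70 for Ski. It was -0.56 for Tgfbr2, -0.37 for Smad2, -0.35 for Smad4, -0.29 for Tgfbr1 and -0.02 for Tgfb1, whose sign turned with DESeq2's size factors and with the length and GC correction, and without OAT-1746 replicate 1 (0.11), CTR replicate 2 (0.03) or anti-PD-1 replicate 2 (0.04). Several sizes rested on 1 library or on the correction. Without OAT-1746 replicate 2 the difference was -0.35 for Tgfbr2 and -0.08 for Tgfbr1. For Tgfbr1 it was -0.10 without CTR replicate 1, -0.51 without CTR replicate 2 and -0.46 without OAT-1746 replicate 1. Without anti-PD-1 replicate 2 the difference was -0.49 for Skil and -0.41 for Ski. With the block and the length and GC correction together it was -0.46 for Ski, -0.27 for Tgfbr2, -0.18 for Tgfbr1 and -0.18 for Smad2. Over the whole table this interaction gave 45 genes by edgeR's quasi-likelihood test with Benjamini-Hochberg adjustment (0.359%), a count that was 0 without CTR replicate 1, CTR replicate 2, anti-PD-1 replicate 2, COMB replicate 2 or COMB replicate 3, 22 without anti-PD-1 replicate 1, 25 without OAT-1746 replicate 2, 2756 without OAT-1746 replicate 1 and 419 without COMB replicate 1.

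The 5 genes whose log2 CPM followed Tgif2 most closely over the 9 libraries, of 9417 genes with a mean of at least 5 CPM, were Brpf3 (Pearson r 0.989), Usp38 (0.987), Wdr20 (0.984), Dnajb4 (0.984) and Wsb1 (0.983). Dnajb4, an HSP40 co-chaperone, covered a similar range, with 11.9 and 14.8 CPM in CTR, 38.9 and 61.7 in OAT-1746, 17.0 and 20.3 in anti-PD-1, and 12.4, 13.5 and 11.1 in COMB. Brpf3, a scaffold of a histone acetyltransferase complex, covered a narrower one, from 10.5 and 12.5 CPM in CTR to 17.7 and 21.4 in OAT-1746. Over the 7 libraries without OAT-1746 these 5 correlations were 0.909 to 0.956. Those 7 are part of the 9 libraries by which the 5 genes were picked, so these values are no separate look. At the other end were Swi5 (-0.970), Vars (-0.967) and the ribosomal protein gene Rpl12 (-0.965), which had 826 and 722 CPM in CTR and 481 and 394 in OAT-1746.

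Among the 10 genes Smad7 was the most like Tgif2, with an r of 0.955 over 9 libraries and 0.972 over the 7 without OAT-1746. Smad2 had 0.824 and 0.897. Smad3 had 0.897 over 9 libraries and 0.536 over 7, Tgfbr2 0.843 and 0.213, Ski 0.836 and 0.194, Skil 0.817 and 0.389, Smad4 0.751 and -0.106, Tgfbr1 0.692 and -0.361, and Tgfb1 -0.208 and 0.408. Smad7 and Smad2 thus followed Tgif2 also outside the OAT-1746 libraries, and the receptors did so only with them. Among those 7 libraries Tgif2, Smad7 and Smad2 each had both anti-PD-1 libraries above all CTR and COMB libraries. Their r there is therefore not separate from the comparisons above, and the share of all genes with such an r was not computed. With only OAT-1746 replicate 2 left out, r was 0.886 for Smad7, 0.818 for Smad2, 0.619 for Tgfbr2 and 0.294 for Tgfbr1. For Tgfb1 it turned to 0.344. All points share the 9 libraries, and these values are a description.

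**Figure D3:**
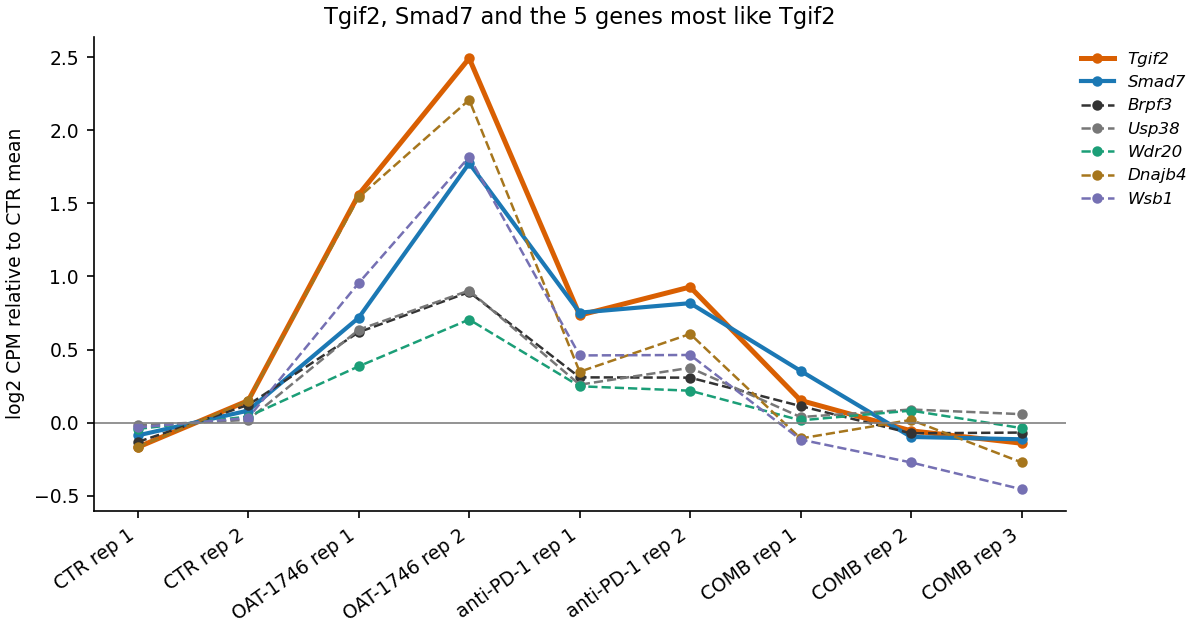
Log2 CPM relative to the CTR mean in each library for Tgif2, Smad7 (solid lines) and the 5 genes most correlated with Tgif2 (dashed lines); lines join libraries for reading only. Every gene drawn peaks in OAT-1746 replicate 2, stands above 0 in both anti-PD-1 libraries and lies near 0 or below it in COMB replicates 2 and 3.

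The nearest annotated protein-coding genes on the chromosome did not share the pattern at a comparable level. Myl9, a myosin light chain gene 58349 bases away on the same strand, had 1.32 and 2.82 CPM in CTR, 2.79 and 10.01 in OAT-1746, 3.41 and 0.789 in anti-PD-1, and 3.34, 2.38 and 2.27 in COMB. 4930518I15Rik, 1046 bases away on the other strand, had at most 0.594 CPM in any library and was not tested. The noncoding 5430405H02Rik overlaps Tgif2 on the other strand at a mean of 1.94 CPM, and counting was strand-specific.

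Markers of the cell types in the sort also differed between libraries. The summed level of 5 microglia markers (P2ry12, Tmem119, Sall1, Cx3cr1 and Siglech) was 6188 and 9675 CPM in CTR, 13610 and 17520 in OAT-1746, 9076 and 7660 in anti-PD-1, and 11270, 7996 and 7639 in COMB. Cx3cr1 was the most abundant of them, and none was at 0 in every library. All 5 lay above CTR in both OAT-1746 libraries, beside 30.8% of all tested genes. The 6 markers of monocytes and macrophages, led by Tgfbi, summed to 6953 and 6130 CPM in CTR, 4606 and 583 in OAT-1746, 5251 and 7031 in anti-PD-1, and 4532, 7191 and 7399 in COMB. Most of that sum was Tgfbi. The other 5 markers, summed apart after the data were seen, had 1250 and 1832 CPM in CTR. In OAT-1746 replicate 1 they lay above CTR at 1985, and in replicate 2 far below at 217. Of all 6 markers 4 lay below CTR in both OAT-1746 libraries and 0 above, beside 32.1% and 30.8% of all tested genes. Their median there was -1.08 (-0.45 without OAT-1746 replicate 2). In anti-PD-1 the 5 markers without Tgfbi had 2163 and 2215, both above CTR, and in COMB 1197, 1361 and 1308, all below anti-PD-1. This order was also seen for Tgif2 and Smad7 and was set mainly by Ly6c2 and Plac8. The single markers went both ways. In anti-PD-1 2 of the 6 lay above CTR and 1 (Ccr2) below, beside 20.6% and 16.9% of all tested genes, with a median of -0.135. OAT-1746 replicate 2 was the library with the highest microglia sum and the lowest monocyte sum, with or without the leading marker. The part of these shifts in the values of the pathway genes was not tested.

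Divided by the microglia sum, a ratio chosen after the data were seen, both receptors no longer stood above CTR in OAT-1746 and Tgif2 still did. Tgif2 was chosen in part by its high level in the OAT-1746 libraries and differed most there among the 10 genes. Its place above CTR on this scale is therefore a description and not separate from that choice. Per 1000 CPM of microglia markers Tgfbr1 stood at 185 and 157 in CTR, 129 and 129 in OAT-1746, 128 and 148 in anti-PD-1, and 143, 171 and 164 in COMB. Smad3 stood at 12.5 and 12.7 in CTR and 12.7 and 13.6 in OAT-1746. Tgif2 stood at 1.78 and 1.42 in CTR, 2.68 and 3.97 in OAT-1746, 2.27 and 3.07 in anti-PD-1, and 1.22, 1.49 and 1.47 in COMB. On this scale Tgfbr1 in OAT-1746 lay below CTR, Smad3 overlapped it, and Tgif2 was above CTR with either agent alone and overlapped it with both. Of the 10 genes 7 lay below CTR in OAT-1746 on this scale (Tgfb1, Tgfbr1, Tgfbr2, Smad2, Smad4, Ski and Skil), Smad3 and Smad7 overlapped CTR, Smad7 with 5.15 and 3.70 in CTR and 4.09 and 6.61 in OAT-1746, and only Tgif2 lay above. Dividing by a sum that was itself high in OAT-1746 put 75.9% of all tested genes below CTR and 2.5% above, so 7 of 10 below was near the share of all genes.

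**Figure D4:**
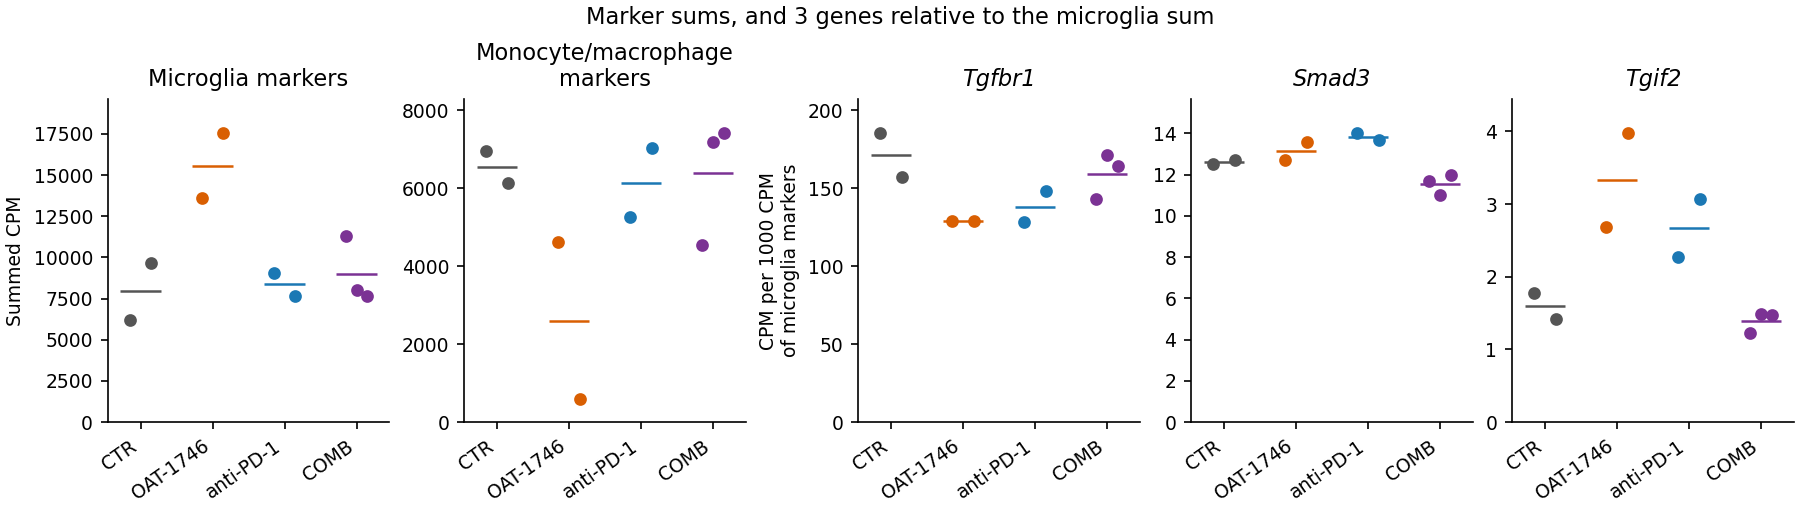
Summed CPM of 5 microglia and 6 monocyte/macrophage markers in each library (points) with group means (lines), and Tgfbr1, Smad3 and Tgif2 in CPM per 1000 CPM of the microglia markers. Microglia markers reach 13610 and 17520 CPM in OAT-1746, and Tgif2 relative to them is above CTR there, at 2.68 and 3.97 against 1.78 and 1.42. This is a description, as the Tgif2 level in OAT-1746 entered the choice of genes.

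NK cell markers were highest in anti-PD-1, where Tgif2 and Smad7 also stood above CTR. The paper had already reported Klre1, Gzma and Prf1 of this list as upregulated by the antibody, alone and in COMB, in these data. The list was thus not chosen blind to these comparisons, and its counts are a description. The 5 markers, led by Gzma, summed to 30.0 and 26.8 CPM in CTR, 41.7 and 12.7 in OAT-1746, 182 and 91.0 in anti-PD-1, and 36.6, 80.3 and 87.6 in COMB. All 5 lay above CTR in anti-PD-1 at an unadjusted p under 0.05, beside 3.18% of all tested genes, and all 5 had a negative fold change in COMB against anti-PD-1, with a median of -1.38, 2 of them at that level, beside 5.26%. The groups thus had the order of Tgif2 and Smad7 in these 2 comparisons, but not in COMB against CTR. There all 5 markers had a positive fold change, with a median of 1.3, while Tgif2 was at -0.01 and Smad7 at 0.06. At an unadjusted p under 0.05, 2 of the 5 were higher there, beside 3.21% of all tested genes. None of the 5 was at 0 in every library. Their part in the anti-PD-1 values was not tested.

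The pathway was also read from gene lists, with no p given for OAT-1746 against CTR. These lists hold the 10 genes where they belong, so their counts and medians repeat values given above, and after the data were seen they were also computed without those genes. Of all tested genes 30.8% lay above and 32.1% below CTR in both OAT-1746 libraries, with a median of 0.008, or -0.0043 without OAT-1746 replicate 2. Genes of ligand storage and activation, such as latency proteins and integrins, showed little common direction. Of 11 listed, 9 were tested, and in OAT-1746 1 lay above CTR and 1 below, smaller shares than the 30.8% and 32.1% of all tested genes, with a median of 0.07 (0.14 without OAT-1746 replicate 2). Under COMB, 1 of the 9 was lower than under anti-PD-1 at an unadjusted p under 0.05, beside 5.26% of all genes. This was Thbs1, thrombospondin 1, an activator of latent TGF-beta, with 210 and 415 CPM in CTR, 436 and 79.8 in OAT-1746, 232 and 477 in anti-PD-1, and 177, 64.9 and 111 in COMB. Its difference of -1.59 between COMB and anti-PD-1 was -0.94 without anti-PD-1 replicate 2. Nrros, which holds latent TGF-beta on microglia, was the most abundant per length, with a mean of 358 CPM, and Itgb8, the integrin subunit that activates it, had the largest difference in OAT-1746 among those with a mean of at least 1 CPM, at a mean of 1.85 CPM and with libraries that overlapped CTR. In anti-PD-1 against CTR 0 of the 9 passed an unadjusted p of 0.05, beside 3.18% of all genes higher and 1.94% lower, and in COMB against CTR 0, beside 3.21% and 3.37%. Of the 3 ligands 2 lay above CTR in OAT-1746 and Tgfb1 below, beside 30.8% and 32.1% of all tested genes, with a median of 1.14 (0.77 without OAT-1746 replicate 2). Tgfb3 had 0.240 and 0.647 CPM in CTR, 0.757 and 1.26 in OAT-1746, 0.836 and 0.507 in anti-PD-1, and 1.11, 2.11 and 1.99 in COMB. On 4 to 32 counts in each library, it was the 1 ligand higher at an unadjusted p under 0.05 in COMB against CTR (3.21% of all genes) and against anti-PD-1 (1.98%). Its difference of 1.38 against anti-PD-1 (standard error 0.574) was 1.17 (0.689) with the replicate number as a block. Without anti-PD-1 replicate 2 it was 1.065.

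Receptors and co-receptors were higher in OAT-1746 for 3 of 5 genes without overlap and lower for 1, beside 30.8% and 32.1% of all tested genes, and their median was 0.54 (0.42 without OAT-1746 replicate 2). Of the 3 without Tgfbr1 and Tgfbr2, 1 lay above and 1 below. Eng, endoglin, an accessory receptor, had the largest difference, with 158 and 164 CPM in CTR, 234 and 300 in OAT-1746, 146 and 163 in anti-PD-1, and 186, 177 and 176 in COMB. Acvrl1, the alternative type I receptor of endothelial signaling, went the other way, with 112 and 123 CPM in CTR and 82.5 and 61.2 in OAT-1746. None of the 5 had an unadjusted p under 0.05 in anti-PD-1 against CTR (3.18% of all genes higher, 1.94% lower), COMB against CTR (3.21% and 3.37%) or COMB against anti-PD-1 (1.98% and 5.26%), where the low Tgfbr3 differed most, at -1.14 (standard error 0.559). That value rested on anti-PD-1 replicate 1, with -0.13 without it and -1.71 without replicate 2. Acvrl1 was added to the genes named after its values were seen, as the 1 gene below.

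SMAD mediators and their anchors, 6 tested of 7, had 3 above CTR in OAT-1746 and 0 below, beside 30.8% and 32.1% of all tested genes, with a median of 0.43 (0.19 without OAT-1746 replicate 2). The 3 were Smad2, Smad3 and Smad4 themselves. The other 3, Zfyve9, Crebbp and Ep300, overlapped CTR, with a median of 0.43 (-0.05 without that library). Zfyve9 (SARA), which brings SMADs to the receptor, was the 1 gene of the 6 at an unadjusted p under 0.05 in COMB against anti-PD-1, where 5.26% of all tested genes were lower, at -0.49 (standard error 0.216) and at -0.21 (0.274) without anti-PD-1 replicate 2, with 18.3 and 25.3 CPM in anti-PD-1 and 17.9, 12.2 and 16.5 in COMB. No gene of the list reached that level in anti-PD-1 against CTR (3.18% of all genes higher, 1.94% lower) or COMB against CTR (3.21% and 3.37%). Inhibitory SMADs and receptor turnover genes, 9 of 9 tested, had 5 above CTR and 1 below in OAT-1746, beside 30.8% and 32.1% of all genes, with a median of 0.43 (0.30 without OAT-1746 replicate 2). Of the 8 without Smad7, 4 lay above and 1 below, with a median of 0.26 (0.25 without OAT-1746 replicate 2). Smad7 was the 1 gene at an unadjusted p under 0.05 in anti-PD-1 against CTR (3.18% of all genes were higher) and the 1 in COMB against anti-PD-1 (5.26% lower). Pmepa1, a TGF-beta target that sequesters SMADs and was the most abundant of this list per length, had 248 and 285 CPM in CTR, 344 and 377 in OAT-1746, 205 and 244 in anti-PD-1, and 294, 225 and 215 in COMB. Bambi, a decoy receptor named after its values were seen, was the 1 gene lower at that level in COMB against CTR (3.37% of all genes), at -0.80 (standard error 0.335).

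Among the repressors and their regulators 3 of 10 had a lower level in COMB, set against anti-PD-1, at an unadjusted p under 0.05 and 0 a higher one, beside 5.26% and 1.98% of all tested genes. In that comparison 4 of 10 lay fully below, beside 16.4% of all, and the median was -0.36 against -0.0093. In OAT-1746 6 lay above CTR and 2 below, beside 30.8% and 32.1%, with a median of 0.50 (0.28 without OAT-1746 replicate 2). Of the 7 without Ski, Skil and Tgif2, 3 lay above CTR and 2 below in OAT-1746. Their median of 0.28 became 0.14 without OAT-1746 replicate 2. In COMB 2 of these 7 were lower against anti-PD-1 at that level and 3 lay fully below, with a median of -0.38. Of all 10, the 3 lower in COMB against anti-PD-1 at an unadjusted p under 0.05 were Tgif2, its paralog Tgif1, and Rnf111 (Arkadia). Rnf111 is the ubiquitin ligase that removes SKI and SKIL, and Tgif1 and Rnf111 were named after their values were seen. Tgif1 had 132 and 111 CPM in CTR, 147 and 203 in OAT-1746, 93.3 and 149 in anti-PD-1, and 59.9, 82.9 and 74.6 in COMB. The 3 COMB libraries of Tgif1 were the lowest of all 9, at -0.74 on the log2 scale against anti-PD-1 (standard error 0.236) and -0.75 against CTR (0.236), with unadjusted p-values of 0.0116 and 0.0114 in the edgeR fit and adjusted p-values of 0.574 and 0.724 by edgeR's quasi-likelihood test with Benjamini-Hochberg adjustment. Without anti-PD-1 replicate 2 the first of these was -0.35. Rnf111 had 30.2 and 26.6 CPM in CTR, 43.8 and 54.9 in OAT-1746, 36.7 and 37.5 in anti-PD-1, and 27.2, 23.5 and 26.1 in COMB, the same order of groups as Tgif2. In anti-PD-1 against CTR 2 of the 10, Tgif2 and Rnf111, were higher at that level (3.18% of all genes), and in COMB against CTR 1, Tgif1, was lower (3.37%).

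The TALE homeobox genes, the family of the TGIF proteins, were mostly higher in OAT-1746. Of 14 listed 9 were tested, and 6 of them lay above CTR in OAT-1746, beside 30.8% of all tested genes, with a median of 0.53 (0.44 without OAT-1746 replicate 2). Under both agents 5 of the 9 lay below anti-PD-1, beside 16.4% of all, 2 of them (Tgif1 and Tgif2) at an unadjusted p under 0.05, beside 5.26%. The Tgif1 difference of -0.74 was -0.35 without anti-PD-1 replicate 2. Without Tgif2 5 of 8 lay above CTR in OAT-1746, with a median of 0.50 (0.37 without OAT-1746 replicate 2). In COMB 4 of the 8 lay below anti-PD-1, 1 at an unadjusted p under 0.05. Tgif1 was the most abundant of the family per length and Tgif2 the one with the largest difference in OAT-1746 and in COMB against anti-PD-1. In anti-PD-1 against CTR 1 of the 9, Tgif2, had an unadjusted p under 0.05 (3.18% of all genes were higher), and in COMB against CTR 1, Tgif1 (3.37% lower).

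Genes known as TGF-beta targets lay on both sides of CTR in OAT-1746. Of 13 tested, 6 lay above and 4 below, beside 30.8% and 32.1% of all tested genes, so the share below was that of all genes. The median of -0.16 became 0.04 without OAT-1746 replicate 2. Of the 11 without Smad7 and Skil, 4 lay above and 4 below, with a median of -0.57 (-0.11 without that library). Tgfbi, a matrix protein and also 1 of the monocyte markers, was the most abundant of them per length and, among those with a mean of at least 1 CPM, differed most in OAT-1746, with 5703 and 4298 CPM in CTR, 2621 and 366 in OAT-1746, 3088 and 4815 in anti-PD-1, and 3335, 5830 and 6091 in COMB. Both OAT-1746 libraries of Tgfbi lay below all 7 others.

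Compared with anti-PD-1, COMB had 4 of the 13 targets lower at an unadjusted p under 0.05 and 0 higher, where 5.26% and 1.98% of all tested genes were. Beside Smad7 these were Cdkn1a, the cell cycle inhibitor p21, Junb, an AP-1 subunit, and Klf10, a TGF-beta-induced repressor, the last 2 named after their values were seen. Cdkn1a was at -0.94 (standard error 0.406) and at -0.44 (0.491) without anti-PD-1 replicate 2, with 325 and 583 CPM in anti-PD-1 and 205, 252 and 252 in COMB. Junb had 2520 and 2365 CPM in CTR, 2986 and 3004 in OAT-1746, 1653 and 2774 in anti-PD-1, and 1092, 1331 and 1356 in COMB, the 3 lowest of the 9 libraries. Its -0.81 against anti-PD-1 became -0.37 without anti-PD-1 replicate 2. Klf10 had 41.3 and 41.2 CPM in CTR, 70.5 and 64.0 in OAT-1746, 51.1 and 56.6 in anti-PD-1, and 32.9, 40.6 and 34.2 in COMB. In anti-PD-1 against CTR 3 of the 13 were higher at that level (Smad7, Klf10 and the scarce Cdkn2b), beside 3.18% of all genes, and in COMB against CTR 1 was higher (Cdkn2b) and 1 lower (Junb), beside 3.21% and 3.37%.

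The activin and BMP branch, which shares SMAD4, was sparse, with 15 tested of 22 listed. In OAT-1746 9 of them lay above CTR and 1 below, beside 30.8% and 32.1% of all tested genes, with a median of 0.61 (0.36 without OAT-1746 replicate 2). Bmpr1a, a BMP type I receptor and the gene that differed most in OAT-1746 among those with a mean of at least 1 CPM, had 17.0 and 25.5 CPM in CTR, 42.5 and 59.6 in OAT-1746, 31.5 and 26.9 in anti-PD-1, and 33.5, 30.6 and 27.2 in COMB. Gdf15, a stress-induced ligand of the TGF-beta superfamily, had 6.97 and 4.94 CPM in CTR, 5.30 and 3.55 in OAT-1746, 8.08 and 12.2 in anti-PD-1, and 3.19, 0.990 and 1.70 in COMB. Its difference of -2.38 in COMB against anti-PD-1 (standard error 0.431) had an adjusted p of 0.403 by edgeR's quasi-likelihood test with Benjamini-Hochberg adjustment, and it was the 1 gene of the 15 at an unadjusted p under 0.05 there, where 5.26% of all genes were lower and 1.98% higher. DESeq2 called it, with an adjusted p of 0.000511 by the Wald test, and over all alternatives its adjusted p ran from 0.000511 to 1. Id2, a target of BMP signaling and the most abundant of the list per length, had a mean of 99.2 CPM. In anti-PD-1 against CTR 1 of the 15 (Id3) was higher at an unadjusted p under 0.05, beside 3.18% of all genes, and in COMB against CTR 1 was higher (Bmpr1a) and 1 lower (Gdf15), beside 3.21% and 3.37%.

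Microglia genes that depend on TGF-beta were, like the receptors, higher in OAT-1746. Of 14 tested, 12 lay above CTR and 0 below, beside 30.8% and 32.1% of all tested genes, with a median of 0.93 (0.76 without OAT-1746 replicate 2), and 5 of the 14 are the whole of the microglia marker list, so the 2 readings are not separate. P2ry12, the purinergic receptor of resting microglia, had 1376 and 2309 CPM in CTR, 3488 and 4726 in OAT-1746, 1802 and 1534 in anti-PD-1, and 2539, 1698 and 1612 in COMB. C1qa, the complement gene most abundant per length, had 5478 and 5856 CPM in CTR and 5415 and 5801 in OAT-1746. None of the 14 had an unadjusted p under 0.05 in anti-PD-1 against CTR (beside 3.18% of all genes higher and 1.94% lower), COMB against CTR (3.21% and 3.37%) or COMB against anti-PD-1 (1.98% and 5.26%), where Pros1 differed most, at 0.33 (standard error 0.254), and ran from 0.16 to 0.60 on leaving out 1 library.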

How the data were processed

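RNA-seq of CD11b+ cells was read in 9 libraries of 4 groups. The authors aligned read pairs to mm10 with STAR and counted them by gene and strand with HTSeq, and the deposited table holds these raw counts. Library totals ranged from 13048075 to 18796479 counts. Of 53801 genes 53620 had an entry in GENCODE M21 and 21890 were protein-coding. filterByExpr (minimum count 10) left 12538. edgeR 4.0.16 in R 4.3.3 applied TMM scaling and its quasi-likelihood fit, 1 mean for each group. Tests were two-sided, and p-values were adjusted over all 12538 genes by Benjamini-Hochberg, with calls under 0.05. The 10 genes and all lists were chosen with earlier results of these data known, and 3 genes and 1 marker list are not reported and enter no count or sum. Named from each list were the most abundant gene per length and those with the largest absolute log2 fold change in OAT-1746 against CTR and in COMB against anti-PD-1 at a mean of at least 1 CPM. Named beside Tgif2 were the 5 most and 3 least correlated genes (log2 CPM, prior count 2) and its neighbours. The alternatives were DESeq2 1.42.0 (Wald test), DESeq2's size factors (RLE) in edgeR, scaling by library size, omission of the low-count filter, a filter of 10 counts in each library, all gene types, a block by replicate number, a length and GC correction (loess, span 0.5), block and correction together, only the groups compared, and leaving out each library. Chosen after the data were seen were the lists without the 10 genes, the marker sums without the most abundant marker, list medians without OAT-1746 replicate 2, and these alternatives for the list genes named. The edgeR fit, the DESeq2 test, the replicate block and the length and GC correction were tried on simulated counts with genes changed in OAT-1746. Those counts held no outlying library like OAT-1746 replicate 2. They therefore do not bear on the differing numbers of calls by edgeR and DESeq2. Plots used Python 3.11.15 with matplotlib 3.10.9.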

Additional observations from a re-analysis of the deposited data

Results flagged for a closer look

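For 3 genes OAT-1746 pointed one way without the antibody and the other way with it: both OAT-1746 libraries lay above both CTR libraries, and all 3 COMB libraries lay below both anti-PD-1 libraries. The same held for 6.56% of all tested genes, and for 21.3% of those above CTR in OAT-1746, beside 3 of 9 of the pathway genes above CTR. The difference of the 2 log2 fold changes was -2.95 for Tgif2, -2.06 for Smad7 and -0.37 for Smad2. These genes were chosen with the OAT-1746 values known, and those values are part of the difference, so it is a description and no test of it is reported. Among all tested genes above CTR in OAT-1746 96.2% had a negative difference, with a median of -0.73. Without OAT-1746 replicate 2 it was -2.39 for Tgif2, -1.42 for Smad7 and -0.32 for Smad2. The difference for Smad2 was -0.18 with the replicate block and the length and GC correction together. Divided by the microglia marker sum, Tgif2 in OAT-1746 was still above CTR and Smad7 overlapped CTR. Smad2 lay below CTR on that scale, as did 75.9% of all tested genes.

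Klf10, a TGF-beta target, showed the same pattern, with both OAT-1746 libraries above CTR and all 3 COMB libraries below anti-PD-1. Its difference was -1.29 on the log2 scale (standard error 0.208) and ran from -1.20 to -1.39 on leaving out 1 library. The gene was named after its values were seen, so this is a description and no test of it is reported.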

How the results depend on the processing

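Of the 940 values of the 10 genes under the alternatives, 851 kept their reading, 50 turned sign in the 3 tested comparisons and 39 without a test moved beyond the replicate spread. Counted over all comparisons 57 turned sign, and the 7 others were all Tgfb1 in the interaction, at -0.02 in the report, 2 of them among the 39 and 5 among the 851. No member passed or lost the adjusted threshold in the 3 tested comparisons under any of them. The cause of each shift below was not tested, apart from fits with fewer libraries or genes.

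Genes called in OAT-1746 against CTR, 0 in the report, were 1972 with DESeq2, 587 with no low-count filter and 0 to 3647 on leaving out 1 library (3647 without OAT-1746 replicate 1, 278 without COMB replicate 1). In anti-PD-1 against CTR, 0 became 14 with DESeq2. In COMB against CTR, 0 became 35 with DESeq2, 2 with no low-count filter and 5 with only the groups compared. In COMB against anti-PD-1, 0 became 47 with DESeq2, 2 with no low-count filter, 17 with only the groups compared and 0 to 43 on leaving out 1 library (43 without OAT-1746 replicate 1, 38 without OAT-1746 replicate 2). In the interaction, 45 became 1053 with DESeq2, 24 by library size only, 146 with no low-count filter, 18 with all genes, 0 with the replicate block, 0 with the replicate block and length and GC correction, and 0 to 2756 on leaving out 1 library. It was not run with only the groups compared.

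Members at an unadjusted p under 0.05, a count whose alternatives were chosen after seeing the data, were 2 in anti-PD-1 against CTR, 1 with the block and length and GC correction and 0 to 2 on leaving out 1 library. In COMB against CTR there were 0, 1 with only the groups compared and 0 to 1 on leaving out 1 library. In COMB against anti-PD-1 there were 2, 1 with the block, 1 with the block and length and GC correction, and 0 to 2 on leaving out 1 library. Replicate numbers do not pair the samples (correlations of same-number deviations ran from -0.349 to 0.0999), and the block fit gives COMB replicate 3 a coefficient of its own.

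Apart from fits that left out 1 library, signs turned where the log2 fold change was within 0.08 of 0. In COMB against CTR Smad2 became 0.0109 with DESeq2, 0.0109 with RLE, 0.0293 by library size, 0.0164 with no low-count filter, 0.0283 with at least 10 counts, 0.0130 with the block, 0.0389 with the length and GC correction and 0.0650 with both. Tgif2 became 0.0124 with DESeq2, 0.0121 with RLE, 0.0316 by library size, 0.0175 with no low-count filter, 0.0288 with at least 10 counts, 0.0763 with the block and 0.0278 with both. In COMB against anti-PD-1 Tgfbr2 became 0.00693 with DESeq2, 0.00695 with RLE, 0.00761 with no low-count filter, 0.0127 with at least 10 counts, 0.0123 with all genes, 0.0523 with the block, 0.0665 with the length and GC correction and 0.136 with both. Ski became 0.00832 with the length and GC correction and 0.0288 with both, the block included.

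On leaving out 1 library, values in anti-PD-1 against CTR ran from -0.108 to 0.0180 for Tgfb1, -0.236 to 0.0581 for Tgfbr2, -0.0868 to 0.583 for Smad3, -0.386 to 0.101 for Ski and -0.450 to 0.243 for Skil. In COMB against CTR they ran from -0.104 to 0.300 for Tgfbr1, -0.300 to 0.0375 for Tgfbr2, -0.0478 to 0.0144 for Smad2, -0.251 to 0.419 for Smad3, -0.128 to 0.151 for Smad7 and -0.160 to 0.158 for Tgif2. In COMB against anti-PD-1 they ran from -0.178 to 0.0584 for Tgfbr2, -0.368 to 0.0300 for Smad3, -0.261 to 0.226 for Ski and -0.603 to 0.0903 for Skil. Some of these were not near 0: Skil at -0.33 in COMB against anti-PD-1 became 0.0903 without anti-PD-1 replicate 2, and Smad3 at 0.21 in anti-PD-1 against CTR became -0.0868 without CTR replicate 1. A group left with 1 library is assumed to vary like the others.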

Other observations

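The other cell type markers gave these summed levels. Border-associated macrophages (6 markers) had 556 and 610 CPM in CTR, 464 and 475 in OAT-1746, 442 and 462 in anti-PD-1, and 476, 519 and 523 in COMB. The lower sum in OAT-1746 came from Ms4a7 (305 and 306 CPM in CTR, 115 and 32.8 in OAT-1746). Of the 6 markers 4 were higher there and the list median was 0.44 (0.41 without OAT-1746 replicate 2), so the markers do not agree. Neutrophils (5, led by Csf3r) had 295 and 424 CPM in CTR, 467 and 608 in OAT-1746, 330 and 333 in anti-PD-1, and 382, 382 and 370 in COMB. Without Csf3r, a choice made after the data were seen, they had 45.6 and 95.6 in CTR, 85.4 and 133 in OAT-1746, 76.4 and 55.5 in anti-PD-1, and 113, 139 and 116 in COMB, where 2 of the 5, S100a8 and S100a9, were higher at an unadjusted p under 0.05 against CTR and against anti-PD-1, beside 3.21% and 1.98% of all tested genes. At the same level 3 of 5 endothelial, 2 of 4 astrocyte and 1 of 4 tested T cell markers were higher in COMB against CTR, and against anti-PD-1 1 endothelial and 1 astrocyte marker were higher and 1 endothelial marker was lower (5.26% of all). Astrocytes (4, led by Slc1a3) had 61.0 and 101 CPM in CTR, 133 and 199 in OAT-1746, 83.2 and 64.9 in anti-PD-1, and 121, 105 and 101 in COMB, all 3 above anti-PD-1. Without Slc1a3 the OAT-1746 libraries overlapped CTR (16.0 and 12.8 against 11.0 and 15.1), and COMB, at 17.6, 15.9 and 16.2, was still above anti-PD-1, at 13.9 and 11.2. Endothelial cells (5, led by Flt1) had 141 and 119 CPM in CTR, 146 and 148 in OAT-1746, 187 and 174 in anti-PD-1, and 171, 138 and 155 in COMB. Without Flt1 they had 94.7 and 84.8 in CTR, 97.1 and 114 in OAT-1746, 139 and 111 in anti-PD-1, and 128, 111 and 112 in COMB. B cells (4) had 11.9 and 17.2 CPM in CTR and 22.2 and 25.4 in OAT-1746, almost all of it Cd79b, and without it 1.26 and 1.00 in CTR and 1.46 and 0 in OAT-1746. Platelets (4) had 4.27 and 9.12 CPM in CTR and 15.5 and 13.9 in OAT-1746, almost all of it Gp9, and without it 0.0601 and 0.824 in CTR and 0.524 and 0.515 in OAT-1746. T cells (5, led by Cd4) had 6.80 to 12.4 CPM over the 9 libraries, and without Cd4 0.781 and 0.588 in CTR, 1.40 and 1.60 in OAT-1746, 3.55 and 0.620 in anti-PD-1, and 2.74, 2.31 and 2.48 in COMB. The 4 genes listed for GL261 glioma cells gave a sum that was nearly Vim alone, a gene that other cells also express, so it is no reading of glioma cells. It was 998 and 970 CPM in CTR, 768 and 219 in OAT-1746, 1753 and 1397 in anti-PD-1, and 913, 1380 and 1425 in COMB. The 3 genes without Vim summed to 3.50 to 8.83 CPM. The part of these sums in the values of the pathway genes was not tested. No marker of any list was at 0 in every library.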
